A study of Homo sapiens with 33 samples.

Results

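The transcripts of 47 genes that act in mitosis and in building the spindle were followed across 33 RNA sequencing libraries of acute lymphoblastic leukaemia cell lines. The genes were chosen by name for their known roles, from mitotic cyclins to cytokinesis factors, with earlier results of these data known. Each of the 47 symbols matched 1 of the 62446 gene rows in every file. All 47 passed the low-count filter in all 12 comparisons, so none was left out of a test.

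The libraries fall into 11 groups of 3. Nalm6, a B-cell precursor line, was sampled untreated, after 24 h with CHIR-99021 at 0.5 µM, and after 24 h with prednisolone at 5 µM. A further Nalm6 set was sampled untreated and after 24 h with dexamethasone at 100 nM. TLE1 knockout cells, made from Nalm6 with CRISPR/Cas9, were sampled untreated and after 24 h with prednisolone at 5 µM or dexamethasone at 100 nM. CEM, a T-cell line, was sampled untreated and after 24 h with CHIR-99021 at 2 µM or prednisolone at 10 µM. CHIR-99021 inhibits the kinase GSK3 and is used to activate Wnt signalling, prednisolone and dexamethasone activate the glucocorticoid receptor, and TLE1 encodes a transcriptional co-repressor. For Nalm6 and the knockout, the labels state medium with charcoal-stripped serum, which all of those groups share. The labels do not say whether the knockout is 1 clone or a pool, and 1 protocol field names the drugs of Nalm6 and the knockout the other way round from the titles; the titles were followed. The doses of CHIR-99021 and prednisolone differ between Nalm6 and CEM.

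Cells enter mitosis when CDK1 bound to cyclin A or B is activated by CDC25 phosphatases, with PLK1 and the Aurora kinases acting on spindle poles, centromeres and kinetochores. The spindle assembly checkpoint holds the anaphase-promoting complex and its activator CDC20 until chromosomes are attached, after which securin and cyclin B are destroyed and the cell divides. Many of these genes hold CCAAT boxes close to the start site. Transcripts of these genes are made mainly late in the cell cycle, through FOXM1, the MYB-MuvB complex (MMB) and relief from the DREAM repressor complex, which acts at CHR elements close to the start site. In a culture of unsynchronised cells their level therefore depends both on how many cells are in those phases and on the transcripts per cell, and bulk libraries cannot tell these apart.

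Each library held between 25292579 and 61930057 counts in genes, and 3 counts, taken as the limit of detection, correspond to 0.0484 to 0.119 counts per 1000000 (CPM). These limits cover counting error only. Lineage markers matched the labels: the summed level of 8 B-cell markers was 1409 to 2088 CPM in Nalm6 and knockout libraries and 38.2 to 79.2 CPM in CEM, and that of 8 T-cell markers was 1861 to 2038 CPM in CEM and 24.2 to 49.4 CPM in the others. PAX5, EBF1, CD22 and BLNK were each under 1 CPM in every CEM library, and CD3D, CD3E, CD3G, CD7, CD5 and CD2 in every Nalm6 and knockout library. TLE1 transcript was at 24.0 to 25.4 CPM in the untreated knockout and 30.2 to 34.0 CPM in untreated Nalm6, so the transcript was still present, and its level checks neither the edit nor the protein. TSC22D3, a glucocorticoid receptor target, was at 328.8 to 375.7 CPM under prednisolone and 19.6 to 23.4 CPM untreated in Nalm6, and at 130.5 to 139.9 CPM against 1.97 to 2.33 CPM in CEM. In the dexamethasone set of Nalm6 it was at 467.9 to 480.8 CPM treated and 12.2 to 12.5 CPM untreated. Its level in the knockout was lower, at 153.8 to 163.2 CPM under prednisolone, 149.8 to 165.1 CPM under dexamethasone and 7.03 to 7.87 CPM untreated. Replicate 3 of the untreated knockout stood apart from replicates 1 and 2 for several genes below, and replicate 3 of Nalm6 under CHIR-99021 had the lowest ratio of sense to antisense counts (12.3, against up to 15.3 elsewhere). Counts of called members, and values of several members, are also given without each of these libraries. Nothing in the labels says which replicates came from separate cultures except for part of the series, so p-values measure the spread between these libraries, which may be technical.

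The summed level of the 47 genes was highest in CEM and moved little there. It was 10073 ± 108 CPM in untreated CEM (SD, n = 3), 9550 ± 148 CPM under CHIR-99021 and 10125 ± 60.6 CPM under prednisolone. Untreated Nalm6 stood at 5414 ± 84.6 CPM, with 4952 ± 110 CPM under CHIR-99021 and 4950 ± 57.3 CPM under prednisolone. In the dexamethasone set it was 5822 ± 82.8 CPM untreated and 4703 ± 83.5 CPM treated. Knockout cells had 5222 ± 66.7 CPM untreated, 4181 ± 237 CPM under prednisolone and 4683 ± 105 CPM under dexamethasone. For CHIR-99021, prednisolone and dexamethasone in Nalm6 and prednisolone in the knockout, no treated library reached the lowest library of its own untreated group. The same held for CHIR-99021 in CEM, with at most 9715 CPM treated and at least 9981 CPM untreated. The knockout dexamethasone libraries have no untreated group titled as theirs. In CEM the prednisolone libraries overlapped the untreated ones.

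**Figure D1:**
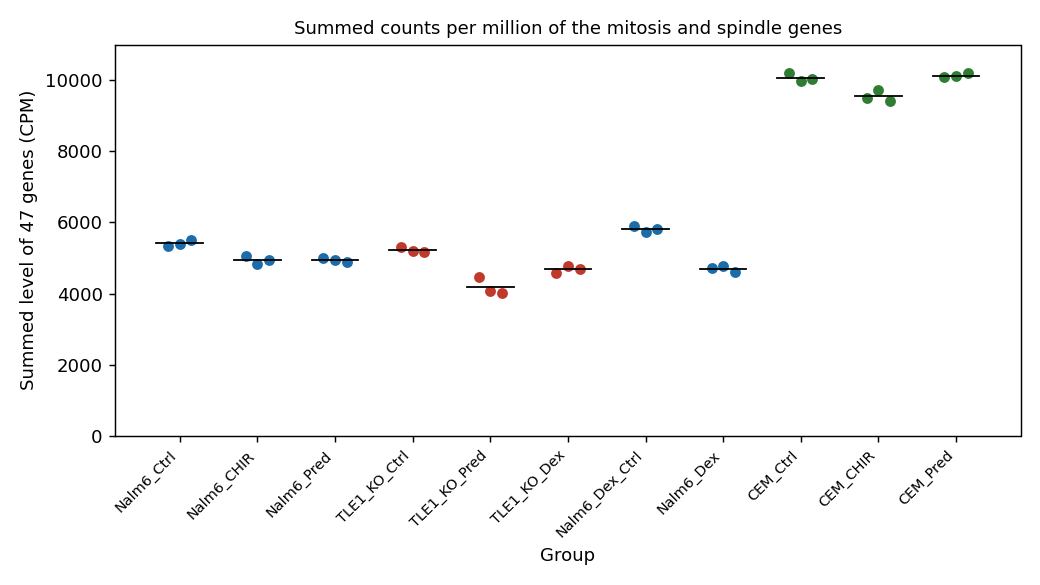
Summed level of the 47 mitosis and spindle genes in counts per 1000000 (CPM, y axis) for each of the 33 libraries, by group (x axis); points are libraries, lines are group means, blue is Nalm6, red the TLE1 knockout and green CEM. The 9 CEM libraries lie between 9427 and 10193 CPM, above every Nalm6 and knockout library.

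Per kilobase of exon (GENCODE v29 gene models), the members covered a wide range in untreated Nalm6. TOP2A, the topoisomerase that untangles sister chromatids, had the highest level at 102 CPM per kb, followed by CDC20 at 52.8 and CCNA2 (cyclin A2) at 50.5 CPM per kb. The lowest were CDC25B at 6.40, CDC25C at 3.67 and PRC1, a microtubule bundler of the central spindle, at 0.53 CPM per kb. PRC1 had 61 to 240 counts per library and the least certain fold changes. An antisense gene, PRC1-AS1, lies at this locus, and the part of overlapping gene models in the low PRC1 count was not tested. PTTG1, KIF4A and AURKA have near-identical copies elsewhere in the genome, so their counts of uniquely mapped reads are uncertain.

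Start-site sequences were read from RefSeq (GRCh38.p14), which held 40 of the 47 genes with 52 start sites; BIRC5, TTK, BUB3, FOXM1, AURKA, TPX2 and UBE2C had no entry. In windows from 250 bases before to 50 after the start, searched on both strands, the CHR hexamer TTTGAA was found for 29 of the 40 genes (72.5%), against 18.2% of 27305 genes in the whole table. The related hexamer TTCGAA, which reads the same on both strands, was found for 3 genes (7.50%, against 1.82% of all). CCAAT was found for 33 genes (82.5%, against 39.7%), and both CCAAT and TTTGAA for 23 (57.5%, against 7.26%). Of 54 further mitotic genes, 42 had an entry and 22 of those held TTTGAA (52.4%). Of 33 DNA replication genes, 29 had an entry and 2 held TTTGAA (6.90%), while 17 held CCAAT. The motifs are short and CCAAT can overlap TTTGAA, as it does in MKI67; a match is a description of the letters and not a measured binding site.

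The 130 bases before the start are shown for 7 members, 5′ to 3′ on the strand of the gene, with TTTGAA and CCAAT or their reverse complements TTCAAA and ATTGG in capitals. CCNB2 (cyclin B2) and PLK1 show the arrangement of CCAAT boxes followed by a CHR hexamer. CCNA2, SPC24 and KIF11 are among the members that fell under glucocorticoids, CENPA is the member that rose most under prednisolone in Nalm6, and MKI67 is the member whose prednisolone response differed most between knockout and parental cells.
CCNB2 (chr15:59105016-59105145, plus strand): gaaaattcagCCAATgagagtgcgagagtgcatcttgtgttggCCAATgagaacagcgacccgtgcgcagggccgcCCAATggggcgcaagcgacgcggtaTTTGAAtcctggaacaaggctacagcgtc
PLK1 (chr16:23678759-23678888, plus strand): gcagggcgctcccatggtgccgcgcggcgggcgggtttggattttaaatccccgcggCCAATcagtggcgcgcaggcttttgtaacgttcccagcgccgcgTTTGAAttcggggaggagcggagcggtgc
CCNA2 (chr4:121823884-121824013, minus strand): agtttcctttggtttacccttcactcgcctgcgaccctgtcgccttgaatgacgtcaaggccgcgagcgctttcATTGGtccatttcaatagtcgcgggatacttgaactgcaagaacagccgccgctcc
SPC24 (chr19:11155783-11155912, minus strand): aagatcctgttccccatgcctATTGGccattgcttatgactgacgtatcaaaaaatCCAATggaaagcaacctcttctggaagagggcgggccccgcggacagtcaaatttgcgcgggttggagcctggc
KIF11 (chr10:92593000-92593129, plus strand): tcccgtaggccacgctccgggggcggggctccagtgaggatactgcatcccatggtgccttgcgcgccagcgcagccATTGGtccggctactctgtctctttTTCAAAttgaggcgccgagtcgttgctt
CENPA (chr2:26785926-26786055, plus strand): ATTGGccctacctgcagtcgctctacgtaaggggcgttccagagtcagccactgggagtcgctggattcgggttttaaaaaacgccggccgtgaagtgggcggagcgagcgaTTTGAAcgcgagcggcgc
MKI67 (chr10:128126424-128126553, minus strand): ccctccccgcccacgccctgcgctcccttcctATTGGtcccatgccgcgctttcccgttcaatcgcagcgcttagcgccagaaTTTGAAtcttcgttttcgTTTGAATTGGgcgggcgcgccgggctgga
In CCNB2, CCAAT began 120, 87 and 54 bases before the start and TTTGAA 29 bases before it. In PLK1 the same 2 motifs began 73 and 29 bases before the start. CCNA2 and SPC24 held CCAAT but no TTTGAA in the stretch shown, and MKI67 held 2 copies of TTTGAA.

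Prednisolone in Nalm6 lowered 30 of the 47 genes and raised 3 (edgeR quasi-likelihood test, Benjamini-Hochberg adjusted p under 0.05). Over all 18658 genes tested, 26.1% were lower and 28.7% higher (54.8% in either direction), and the members' median log2 fold change was -0.16 against 0.03 for all genes. The largest falls were in a checkpoint gene, an S and G2 cyclin and a kinetochore subunit, while the mitotic B cyclins, PLK1, AURKA and TOP2A did not pass the test. The prednisolone and CHIR-99021 comparisons in Nalm6 share their untreated libraries.

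MAD2L1 encodes MAD2, which carries the checkpoint signal from unattached kinetochores. Its level was 113, 103 and 107 CPM in the untreated libraries and 68.2, 65.8 and 69.9 CPM under prednisolone. The groups did not overlap, and the log2 fold change was -0.69 ± 0.05 (SE, edgeR adjusted p = 1.06e-09). CCNA2, the cyclin of S and G2 phase, went from 144, 137 and 143 CPM to 103, 97.2 and 104 CPM (log2 fold change -0.51 ± 0.04, edgeR adjusted p = 1.73e-08). SPC24, a subunit of the NDC80 complex that binds microtubules at the kinetochore, went from 76.4, 76.0 and 79.8 CPM to 59.7, 54.5 and 54.2 CPM (log2 fold change -0.50 ± 0.05, edgeR adjusted p = 5.71e-08). For both genes every treated library lay below every untreated one.

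The 3 members that rose were CENPA, CENPE and CDC25B. CENPA is the histone H3 variant that marks centromeres. It was at 18.6, 21.0 and 19.9 CPM untreated and 24.1, 23.7 and 27.4 CPM with prednisolone (log2 fold change 0.32 ± 0.06, edgeR adjusted p = 0.000443). CDC25B, a phosphatase that starts CDK1 activation, had 25.9, 29.1 and 27.9 CPM against 31.0, 33.5 and 35.8 CPM (log2 fold change 0.26 ± 0.06, edgeR adjusted p = 0.00106). CENPE, a kinetochore kinesin, had 123, 131 and 131 CPM against 149, 158 and 143 CPM (log2 fold change 0.20 ± 0.04, edgeR adjusted p = 0.000387). In each of these 3 genes the treated libraries lay above the untreated ones. Outside the interaction tests, the largest rises and falls named were picked among called members whose groups do not overlap. Such a separation is therefore set by the choice. Groups did not overlap for 36 of the 47 members and for 60.9% of 18658 genes.

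By role, all 4 genes of anaphase onset (CDC20, UBE2C, PTTG1 and ESPL1) were lower, with log2 fold changes from -0.30 to -0.15. So were 4 of 5 Aurora kinase and passenger complex genes, 4 of 5 checkpoint genes and 6 of 8 mitotic kinesins, among them KIF11 (-0.46), which slides spindle microtubules apart, and KIF15 (-0.41). Of the 8 mitotic entry genes, CCNA2, CDK1 (-0.35) and FOXM1 fell and CDC25B rose. Among kinetochore genes 5 fell and 2 rose. Of the 5 spindle pole genes, 3 fell, among them PLK4, the kinase that starts centriole duplication (-0.30). ANLN was the only 1 of 3 cytokinesis genes to fall (-0.26), and neither TOP2A nor MKI67 changed detectably.

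Of the 7 genes followed in every comparison, FOXM1, the transcription factor of the G2 and M programme, fell by 0.28 on the log2 scale (SE 0.04, edgeR adjusted p = 1.15e-05) and CDC20 fell by 0.21 (SE 0.05, edgeR adjusted p = 0.00151). CCNB1 (cyclin B1) was at 0.07 ± 0.04 (edgeR adjusted p = 0.123), PLK1 at -0.08 ± 0.05 (0.163), AURKA at -0.03 ± 0.04 (0.541), TOP2A at -0.02 ± 0.04 (0.648) and MKI67, which coats mitotic chromosomes, at 0.03 ± 0.07 (0.769). For CCNB1 the treated libraries, at 113, 114 and 115 CPM, all lay above the untreated ones at 108, 104 and 107 CPM, by a margin that did not pass the test.

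Replication genes and other mitotic genes moved further. All 33 replication genes were lower, with a median log2 fold change of -0.79, led by UNG (-1.21), GINS2 (-1.10) and MCM4 (-1.07), which encode a DNA repair glycosylase and parts of the replicative helicase. Of 54 other mitotic genes 45 were lower and 1 higher (median -0.26), with the centromere and kinetochore genes CENPM (-0.81), SKA3 (-0.75) and CENPH (-0.75) the furthest down. Of 22 genes of the anaphase-promoting complex and of brakes on mitotic entry 12 were lower and 5 higher (median -0.14, nearer to 0 than that of the members). Among them WEE1, the kinase that inhibits CDK1, fell by 0.58 on the log2 scale. Of 13 genes of the DREAM and MMB complexes and their regulators 9 were lower and 2 higher, led by TFDP1 (-1.0), the partner of E2F factors. Of the 29 members with TTTGAA in the start-site window 18 were lower and 1 higher, and of the 11 without it 6 were lower and 2 higher; the median was -0.16 in both.

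**Figure D2:**
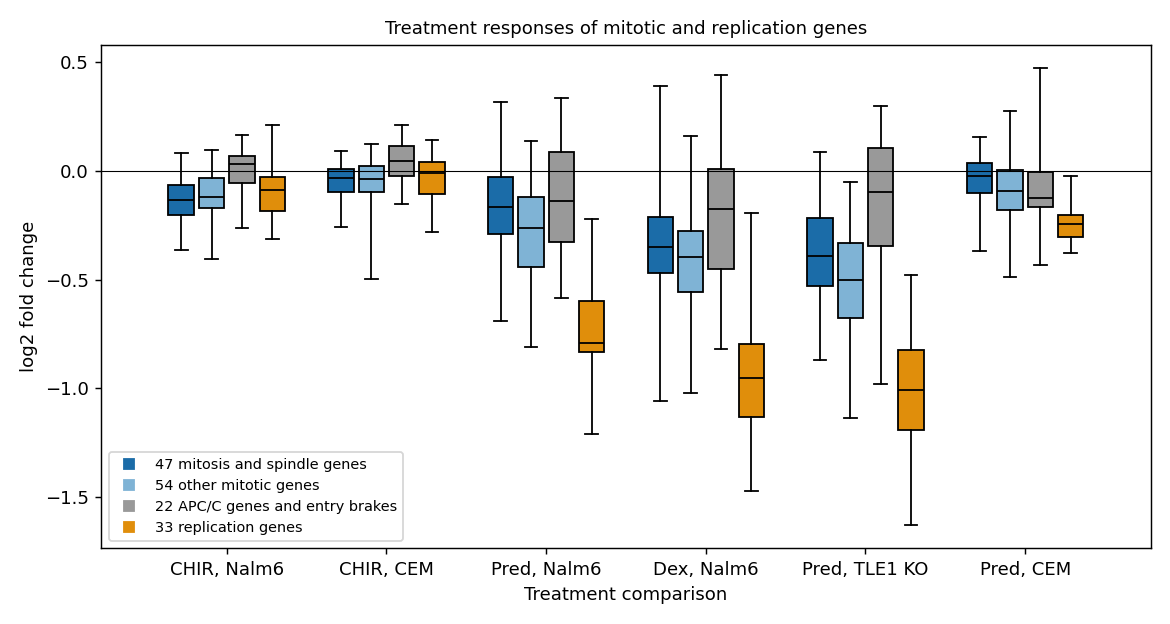
Log2 fold changes (y axis) in the 6 treatment comparisons (x axis) for the 47 mitosis and spindle genes, 54 other mitotic genes, 22 anaphase-promoting complex genes and entry brakes, and 33 replication genes; boxes span the quartiles with the median, and whiskers reach the lowest and highest gene. Replication genes lie lowest under glucocorticoids, with medians of -0.79, -0.95, -1.01 and -0.24, against -0.16, -0.35, -0.39 and -0.02 for the mitosis and spindle genes.

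Dexamethasone in Nalm6 lowered 41 of the 47 genes and raised 1. The background was 30.2% of 17217 genes lower and 30.2% higher (60.5% in either direction), and the members' median was -0.35 against 0.02 for all genes. The B cyclins, AURKA, PLK1 and TOP2A, which had not passed under prednisolone, were among those lowered. This comparison has untreated libraries of its own, and its drug, dose and untreated group all differ from the prednisolone comparison, so the sizes are given side by side and not tested against each other.

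MAD2L1 again fell furthest. Its level was 127, 107 and 105 CPM untreated and 56.1, 53.8 and 57.7 CPM under dexamethasone (log2 fold change -1.06 ± 0.07, edgeR adjusted p = 7.26e-09). CCNA2 went from 176, 162 and 163 CPM to 102, 97.9 and 100 CPM (log2 fold change -0.78 ± 0.05, edgeR adjusted p = 2.42e-09). SPC24 went from 88.5, 88.4 and 93.7 CPM to 56.3, 54.9 and 53.9 CPM (log2 fold change -0.75 ± 0.04, edgeR adjusted p = 1.10e-09). None of the 3 genes had overlapping groups, and all 3 are also the largest falls under prednisolone. PTTG1, which encodes securin, the guard of separase, fell by 0.72 and CDK1 by 0.71 on the log2 scale.

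CDC25B rose, from 29.1, 30.9 and 35.7 CPM to 42.5, 43.1 and 42.9 CPM (log2 fold change 0.39 ± 0.06, edgeR adjusted p = 5.46e-05). Every treated library lay above every untreated one. Among the 47 members the groups of 43 did not overlap, against 65.4% of 17217 genes. The members that passed in neither direction were CENPA (0.11 ± 0.06), CENPE (-0.02 ± 0.04), PRC1 (-0.01 ± 0.12), ECT2 (-0.05 ± 0.05), a cytokinesis factor, and MKI67 (0.04 ± 0.06, edgeR adjusted p = 0.535).

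All 5 Aurora and passenger complex genes, all 5 checkpoint genes, all 8 mitotic kinesins, all 5 spindle pole genes and all 4 anaphase onset genes were lower, and 7 of 8 mitotic entry genes. CCNB1 fell from 146, 135 and 132 CPM to 117, 118 and 114 CPM, by 0.28 on the log2 scale (SE 0.05, edgeR adjusted p = 0.000119). AURKA, which builds spindle poles, fell by 0.28 (SE 0.04, edgeR adjusted p = 2.88e-05). FOXM1 also fell by 0.28 (SE 0.05, adjusted p = 0.000337 in the edgeR test), CDC20 by 0.33 (SE 0.04, 1.14e-05), PLK1 by 0.18 (SE 0.06, 0.0127) and TOP2A by 0.18 (SE 0.04, 0.00114). Replication genes were lower in 33 of 33 cases (median -0.95), the other mitotic genes in 49 of 54 with 1 higher (median -0.40), and the anaphase-promoting complex genes and brakes in 12 of 22 with 4 higher.

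The untreated libraries of the dexamethasone set did not match those of the other Nalm6 set. Between them, 34 members were higher and 2 lower in the dexamethasone set, against 25.8% and 24.4% of 17478 genes (50.2% in either direction), and the members' median was 0.23. PLK1 was at 47.8, 49.9 and 53.4 CPM in the first set and 68.7, 73.8 and 84.3 CPM in the dexamethasone set (log2 difference 0.65 ± 0.07, edgeR adjusted p = 8.63e-06). HMMR, a spindle assembly factor, differed by 0.64 ± 0.04 (adjusted p = 4.95e-07 in edgeR) and AURKB by 0.53 ± 0.04 (1.44e-06). CCNB1 differed by 0.43 ± 0.04 (9.82e-06), AURKA by 0.47 ± 0.04 (3.51e-06), CDC20 by 0.45 ± 0.04 (3.89e-06), FOXM1 by 0.21 ± 0.05 (0.00727) and TOP2A by 0.04 ± 0.04 (0.376). The 2 members lower in the dexamethasone set were MKI67, at 171, 195 and 196 CPM against 269, 269 and 263 CPM (-0.45 ± 0.05, edgeR adjusted p = 9.53e-06), and SPC25 (-0.22 ± 0.07, edgeR adjusted p = 0.0218). Both sets carry the label of untreated Nalm6, so a difference of this size was present without a drug, and replication genes moved the other way, with 2 of 33 higher and 14 lower (median -0.09).

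**Figure D3:**
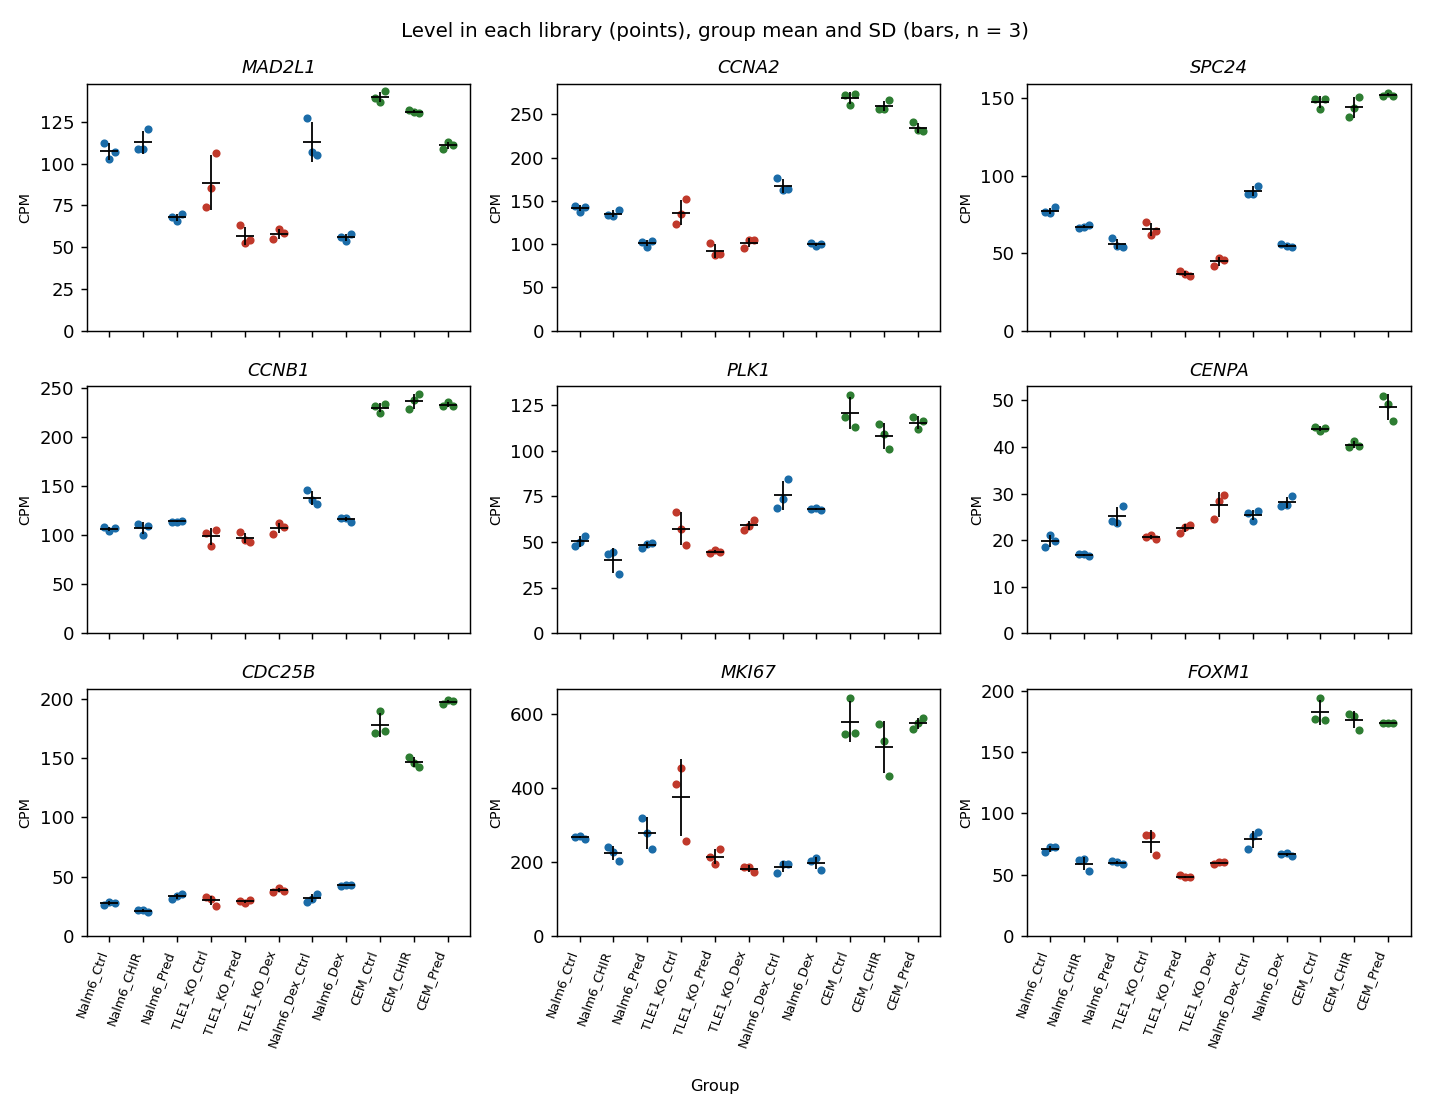
Level of 9 members in CPM (y axes) in each library, by group (x axis); points are libraries, bars give the group mean and SD of 3, blue is Nalm6, red the TLE1 knockout and green CEM. MAD2L1, CCNA2 and SPC24 are lower under glucocorticoids in Nalm6 and the knockout, and MKI67 ranges from 257 to 454 CPM among the 3 untreated knockout libraries.

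In the TLE1 knockout, prednisolone lowered 34 of the 47 genes and raised none; 21.9% of 16555 genes were lower and 19.8% higher (41.7% in either direction). The members' median was -0.39, against 0.00 for all genes. Kinetochore subunits and MKI67 fell furthest. The count of lowered members was 29 to 40 when single libraries were left out, and 32 without replicate 3 of the untreated knockout. Over all genes, 2845 to 3829 were lower in these fits, with 3829 of 17028 without that replicate.

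SPC24 was at 70.3, 62.1 and 64.2 CPM untreated and 38.6, 36.5 and 35.2 CPM with prednisolone (log2 fold change -0.87 ± 0.07, edgeR adjusted p = 4.92e-06). SPC25, its partner in the NDC80 complex, went from 19.1, 17.6 and 15.6 CPM to 10.9, 9.53 and 9.57 CPM (log2 fold change -0.84 ± 0.10, edgeR adjusted p = 0.000103). The groups of both genes were apart, as were those of 34 of the 47 members and 52.8% of 16555 genes. MKI67 went from 411, 454 and 257 CPM to 212, 195 and 236 CPM (log2 fold change -0.84 ± 0.17, edgeR adjusted p = 0.00232). Untreated replicate 3 was much closer to the treated ones than replicates 1 and 2 were, and the log2 fold change ran from -1.05 to -0.68 with single libraries left out, called in 6 of 6 fits.

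FOXM1 went from 82.4, 82.6 and 65.9 CPM to 49.5, 48.1 and 47.8 CPM (log2 fold change -0.71 ± 0.08, edgeR adjusted p = 7.73e-05). CDC20 fell by 0.36 on the log2 scale (SE 0.06, edgeR adjusted p = 0.000756), PLK1 by 0.40 (SE 0.09, 0.00593) and AURKA by 0.22 (SE 0.07, 0.0296). Without untreated replicate 3, FOXM1 fell by 0.80 and PLK1 by 0.50 on the log2 scale, MKI67 by 1.05, and AURKA, at -0.19, did not pass (edgeR adjusted p = 0.053). CCNB1 stood at -0.06 ± 0.08 (edgeR adjusted p = 0.553) and TOP2A at -0.10 ± 0.08 (0.337). MAD2L1 was at 73.9, 85.8 and 106 CPM untreated and 63.1, 52.7 and 54.4 CPM treated, a called log2 fold change of -0.69. All 5 checkpoint genes, all 5 Aurora and passenger complex genes and all 4 anaphase onset genes were lower, as were 7 of 8 kinesins, whereas of the 5 spindle pole genes only PLK4 was. Of the replication genes 33 of 33 were lower (median -1.01), and of the other mitotic genes 45 of 54 (median -0.50). Of 13 DREAM, MMB and regulator genes 12 could be tested, and 7 were lower and 1 higher.

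Across the 3 glucocorticoid comparisons in Nalm6 and its knockout derivative, which use 3 separate untreated groups, 28 members were lower in all 3, as were 17.7% of the 16125 genes tested in all 3. The members lower in none of them, nor in CEM under prednisolone, were CDC25B, CENPA, CENPE and PRC1. The members lower in 1 of the 4 included ECT2 (in CEM), MKI67 (in the knockout), and CCNB1 and TOP2A (under dexamethasone in Nalm6).

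The difference between the prednisolone responses of knockout and parental cells, at the same dose, was tested as an interaction. Of the 47 genes 6 had a lower response in the knockout and none a higher one, against 2.38% and 1.1% of 17952 genes (3.48% in either direction); 45 of 47 differences were below 0 and the median was -0.18. MKI67 had the largest difference, at -0.85 ± 0.21 (edgeR adjusted p = 0.0295): it fell in the knockout and did not pass in the parental cells, where it was at 269, 269 and 263 CPM untreated and 320, 279 and 236 CPM treated. ESPL1, the separase that cuts cohesin, differed by -0.45 ± 0.09 (edgeR adjusted p = 0.00807). Its level was 147, 138 and 121 CPM untreated and 86.6, 79.4 and 81.5 CPM treated in the knockout, against 129, 133 and 135 CPM and 111, 112 and 111 CPM in parental cells. CDC25C differed by -0.45 ± 0.12 (edgeR adjusted p = 0.0493) and FOXM1 by -0.40 ± 0.10 (edgeR adjusted p = 0.0277). SPC24 and BUB1 were the others called.

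PLK1 (-0.29 ± 0.11, edgeR adjusted p = 0.181), AURKA (-0.16 ± 0.09, 0.374), CDC20 (-0.13 ± 0.09, 0.518), CCNB1 (-0.11 ± 0.09, 0.597) and TOP2A (-0.05 ± 0.09, 0.816) did not differ detectably between the responses. These calls rest on few libraries. Only ESPL1 was called in all 12 fits that each leave out 1 library, and MKI67 was called in 3 of them. The count of 6 became 1 without replicate 1 of the untreated knockout, replicate 2 of the treated knockout, replicate 1 of the treated parental cells or any single untreated parental library. It was 2 without replicate 3 of the treated knockout or of the treated parental cells, and 3 without replicate 2 of the untreated knockout. Leaving out replicate 3 of the untreated knockout, or replicate 1 of the treated knockout, gave 9. In the fits that gave 1, 2 or 3 members, 361 to 460 of 18094 to 18593 genes were called. With every library the number was 624 of 17952, and without replicate 1 of the treated knockout 580 of 18113. Without replicate 3 of the untreated knockout 9.96% of 18599 genes were called, MKI67 differed by -1.06 (edgeR adjusted p = 5.58e-05) and FOXM1 by -0.50 (0.000167), and PLK1, at -0.40 (0.00634), was then called.

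Without treatment, the knockout differed from parental cells in 3 members that were higher and 7 that were lower, against 15.3% and 11.8% of 17208 genes (27.1% in either direction). CENPE, at 108, 95.5 and 95.1 CPM against 123, 131 and 131 CPM, was lower by 0.34 on the log2 scale (SE 0.06, edgeR adjusted p = 0.00268). PLK4 (-0.25 ± 0.06, edgeR adjusted p = 0.0162) and SPC24 (-0.22 ± 0.06, 0.0173) followed. CDC20 (-0.21 ± 0.04, 0.00717) and TOP2A (-0.17 ± 0.05, 0.0239) were lower too. UBE2C, the ubiquitin carrier of the anaphase-promoting complex, was higher at 0.20 ± 0.05 (edgeR adjusted p = 0.0238), as was CENPF at 0.18 ± 0.05 (0.0193). Of 13 genes of the DREAM and MMB complexes and their regulators 5 were lower and 1 higher, with log2 differences from -7.83 to 0.21.

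MKI67 was called higher in the knockout at 0.51 ± 0.16 (edgeR adjusted p = 0.0458), with its groups overlapping: knockout replicate 3, at 257 CPM, lay below all 3 parental libraries. CCNB1 (-0.09 ± 0.07, 0.377), PLK1 (0.21 ± 0.10, 0.138), FOXM1 (0.13 ± 0.08, 0.253) and AURKA (-0.01 ± 0.05, 0.885) did not pass the edgeR test. Knockout replicate 3 moved the count: 27 members were called without it, 8 higher and 19 lower, where 36.7% of 18336 genes were called in either direction (19.2% higher and 17.5% lower), whereas leaving out knockout replicate 2 gave 4 and leaving out parental replicates 1, 2 and 3 gave 2, 4 and 3. Only CDC20 and CENPE were called in all 6 of these fits. Over all genes, 3568 of 18275 were called without knockout replicate 2, against 4655 of 17208 with every library. Without parental replicates 1, 2 and 3 the numbers were 2804 of 17019, 2847 of 16965 and 2939 of 17042. Without knockout replicate 3, MKI67 stood at 0.71 (edgeR adjusted p = 4.65e-06), and PLK1 (0.31, 0.0046) and FOXM1 (0.23, 0.00191) were then called higher. Among the 6 fits this was the only 1 in which MKI67 stayed called. Its log2 difference ran from 0.34 to 0.71 over these fits.

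Under dexamethasone, knockout libraries were set against parental libraries under the same drug. No untreated knockout group is titled for dexamethasone, so a genotype difference in the response and one already present without the drug cannot be told apart. Of the members 9 were higher and 18 lower in the knockout, against 28.5% and 28.1% of 16763 genes (56.6% in either direction), and the median was -0.04. Without knockout replicate 1 the split was 15 higher and 14 lower and the median 0.00058. In that fit 4670 of 17667 genes were higher and 4609 lower. CDC20 differed most, with 69.3, 71.0 and 73.5 CPM in the knockout and 116, 118 and 112 CPM in parental cells (-0.68 ± 0.03, edgeR adjusted p = 5.06e-13). CENPF, a kinetochore and nuclear matrix protein gene, was the furthest up, with 415, 430 and 416 CPM against 311, 308 and 291 CPM (0.48 ± 0.03, edgeR adjusted p = 2.14e-11). These groups were far apart, and those of 27 of the 47 members and 61.4% of 16763 genes did not overlap. KIF15 (0.27 ± 0.04, 1.61e-06) and SPC25 (0.24 ± 0.07, 0.00484) were higher, and SPC24 (-0.28 ± 0.04, 6.95e-06), KIF4A (-0.20 ± 0.03, 3.62e-05) and PLK1 (-0.19 ± 0.04, 0.000206) lower, in the edgeR test. FOXM1 (-0.15 ± 0.03, 0.00105), CCNB1 (-0.11 ± 0.04, 0.0178) and MKI67 (-0.11 ± 0.04, 0.0424, groups overlapping) were lower, TOP2A was higher (0.10 ± 0.03, 0.00767) and AURKA did not pass (-0.04 ± 0.04, 0.432). Of 13 DREAM, MMB and regulator genes 6 were lower and 1 higher, with log2 differences from -7.57 to 0.85.

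**Figure D4:**
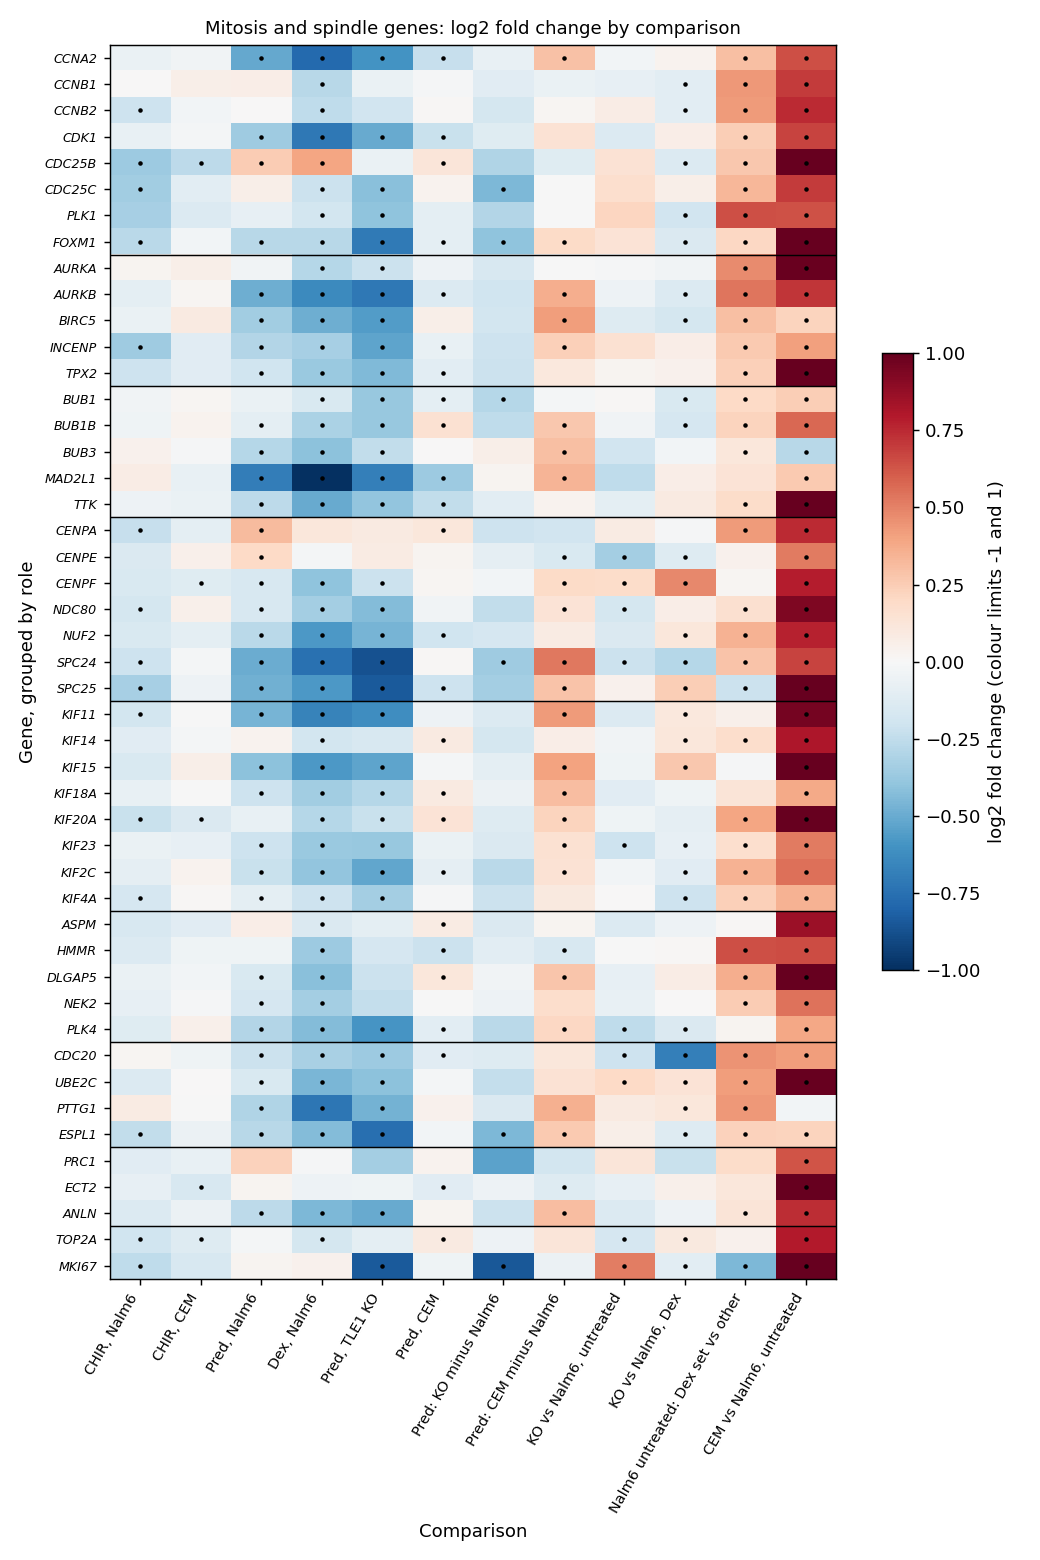
Log2 fold change (colour, limited to -1 and 1) of each of the 47 genes (rows, grouped by role) in the 12 comparisons (columns); a dot marks an edgeR adjusted p under 0.05. The columns for prednisolone and dexamethasone in Nalm6 and prednisolone in the knockout hold 30, 41 and 34 lowered genes, and the column for untreated CEM against Nalm6 holds 45 raised ones.

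In CEM, prednisolone moved members in both directions. Of the 47 genes 16 were lower and 9 higher, against 22.8% and 22.3% of 17381 genes (45.1% in either direction), and the median was -0.02. MAD2L1 fell furthest, from 139, 137 and 143 CPM to 109, 113 and 111 CPM (-0.37 ± 0.03, edgeR adjusted p = 4.25e-08). TTK, the kinase that starts checkpoint signalling, went from 199, 186 and 199 CPM to 167, 168 and 169 CPM (-0.24 ± 0.03, edgeR adjusted p = 6.39e-06). CCNA2 went from 272, 261 and 274 CPM to 241, 232 and 231 CPM (-0.23 ± 0.03, edgeR adjusted p = 1.10e-05). The treated libraries of all 3 genes lay below the untreated ones. In either direction, groups did not overlap for 26 of the 47 members and for 52.9% of 17381 genes.

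BUB1B, which encodes the checkpoint protein BUBR1, was the largest rise, from 203, 198 and 207 CPM to 233, 227 and 232 CPM (0.16 ± 0.03, edgeR adjusted p = 0.000302). KIF20A, a kinesin of the cleavage furrow, rose by 0.14 (SE 0.03, edgeR adjusted p = 0.00386), CDC25B by 0.12 (SE 0.04, 0.0116) and TOP2A by 0.09 (SE 0.02, 0.00767). CDC20 fell by 0.11 on the log2 scale (SE 0.03, edgeR adjusted p = 0.0123, groups overlapping) and FOXM1 by 0.10 (SE 0.04, 0.0356). PLK1 (-0.10 ± 0.04, 0.0857), AURKA (-0.05 ± 0.03, 0.197), MKI67 (-0.04 ± 0.05, 0.499) and CCNB1 (-0.01 ± 0.03, 0.795) did not pass the edgeR test. Checkpoint genes went 3 down and 1 up, kinesins 1 down and 3 up. Replication genes were lower in 31 of 33 cases (median -0.24), and other mitotic genes in 27 of 54 with 5 higher (median -0.09). Without CEM prednisolone replicate 2 the count of called members was 16, with 13 lower and 3 higher. In that fit 3557 of 17930 genes were lower and 3241 higher.

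The response to prednisolone in CEM at 10 µM and in Nalm6 at 5 µM was compared by an interaction term, in which line and dose cannot be told apart. The response was higher (less negative or more positive) in CEM for 23 members and lower for 3, against 14.7% and 12.2% of 20491 genes (26.9% in either direction), with a median difference of 0.14. SPC24 differed most (0.53 ± 0.06, edgeR adjusted p = 6.27e-08): in CEM it was at 150, 143 and 150 CPM untreated and 152, 154 and 152 CPM treated. KIF11 (0.43 ± 0.05, 1.15e-07) and BIRC5, the passenger complex subunit survivin (0.42 ± 0.05, 6.48e-07), came next in the edgeR test. KIF11 in CEM was at 391, 385 and 385 CPM untreated and 381, 385 and 380 CPM treated, against 196, 194 and 200 CPM and 143, 148 and 145 CPM in Nalm6.

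HMMR (-0.16 ± 0.06, 0.0429), CENPE (-0.16 ± 0.05, 0.0316) and ECT2 (-0.13 ± 0.05, 0.0426) were the 3 with a lower response in CEM by edgeR. With single libraries left out, HMMR was called in 3 of 12 fits, CENPE in 6 and ECT2 in 2. FOXM1 differed by 0.19 ± 0.06 (edgeR adjusted p = 0.0107). CDC20 (0.11 ± 0.07, 0.258), TOP2A (0.12 ± 0.05, 0.0667), CCNB1 (-0.07 ± 0.05, 0.359), MKI67 (-0.06 ± 0.10, 0.762), PLK1 (0.00 ± 0.07) and AURKA (0.00 ± 0.05) did not pass; their intervals do not show that the responses are alike.

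CHIR-99021 in Nalm6 lowered 15 of the 47 genes and raised none, against 4.72% and 3.16% of 18082 genes (7.88% in either direction). The median was -0.13, against -0.01 for all genes, and 41 of 47 fold changes were below 0. By role, the called members were 4 of 8 mitotic entry genes, 4 of 7 centromere and kinetochore genes, 3 of 8 kinesins, both chromosome structure and surface genes (TOP2A and MKI67), INCENP among the 5 passenger complex genes and ESPL1 among the 4 anaphase onset genes, and 0 of 5 checkpoint, 0 of 5 spindle pole and 0 of 3 cytokinesis genes. CDC25B went from 25.9, 29.1 and 27.9 CPM to 22.1, 22 and 20.1 CPM (-0.36 ± 0.06, edgeR adjusted p = 0.00533). INCENP, the scaffold of the passenger complex, went from 126, 140 and 147 CPM to 114, 115 and 94.7 CPM (-0.35 ± 0.08, edgeR adjusted p = 0.0228). CDC25C, a late activator of CDK1, went from 11.7, 12 and 13 CPM to 10.3, 8.42 and 10.2 CPM (-0.35 ± 0.08, edgeR adjusted p = 0.0283). The groups of all 3 were apart, as were those of 30 of the 47 members and 29.9% of 18082 genes. The lowest INCENP value came from treated replicate 3.

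FOXM1 fell by 0.27 (SE 0.07, edgeR adjusted p = 0.0315), MKI67 by 0.25 (SE 0.06, 0.0242) and TOP2A by 0.20 (SE 0.04, 0.0173). PLK1, at 47.8, 49.9 and 53.4 CPM untreated and 43.5, 44.5 and 32.3 CPM treated, was at -0.33 ± 0.10 and did not pass (edgeR adjusted p = 0.0842), although its groups were apart. CCNB1 (0.01 ± 0.04, 0.947), CDC20 (0.02 ± 0.04, 0.787) and AURKA (0.03 ± 0.05, 0.777) did not pass the edgeR test either. Of the other mitotic genes 7 of 54 were lower and none higher, led by the condensin subunit NCAPD2 (-0.36), and of the replication genes 6 of 33 were lower and 1 higher.

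The count for CHIR-99021 in Nalm6 depended on single libraries. It was 23 without treated replicate 3, 8 without treated replicate 1, and 7, 3 and 2 without untreated replicates 1, 2 and 3. CDC25B and ESPL1 were called in all 6 of these fits, and no member was called higher in any. Over all genes, 1425 of 18082 were called with every library. Without treated replicate 1, 820 of 18447 were called. Without untreated replicates 1, 2 and 3 the numbers were 779 of 18389, 428 of 18480 and 409 of 18362. Without treated replicate 3, 14.8% of 18303 genes were called, INCENP stood at -0.26 (edgeR adjusted p = 0.0024), FOXM1 at -0.19 (0.00514) and MKI67 at -0.18 (0.000894), and PLK1, at -0.19 (0.0179), was then called.

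In CEM, CHIR-99021 lowered 5 members and raised none, against 5.43% and 5.41% of 17200 genes (10.8% in either direction), with a median of -0.03. CDC25B was again the furthest down, from 171, 189 and 173 CPM to 151, 146 and 142 CPM (-0.26 ± 0.05, edgeR adjusted p = 0.00432). ECT2 went from 259, 245 and 257 CPM to 221, 230 and 222 CPM (-0.16 ± 0.04, edgeR adjusted p = 0.0135). KIF20A fell by 0.14 (SE 0.04, edgeR adjusted p = 0.0457) and TOP2A by 0.13 (SE 0.03, 0.0193), and CENPF was the fifth. These 4 genes had groups that did not overlap, as had 12 of all 47 members and 29.5% of 17200 genes. MKI67 (-0.16 ± 0.09, 0.28), PLK1 (-0.14 ± 0.06, 0.165), CCNB1 (0.06 ± 0.04, 0.358), AURKA (0.06 ± 0.04, 0.365), CDC20 (-0.05 ± 0.04, 0.575) and FOXM1 (-0.03 ± 0.05, 0.744) did not pass the edgeR test.

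CDC25B was the only one of the 5 called in all 6 fits with a library left out. The count was 1 without untreated replicate 1 or 3, 2 without treated replicate 2 and 3 without treated replicate 1. Over all genes, 1865 of 17200 were called with every library. Without untreated replicates 1 and 3 the numbers were 1136 of 17478 and 1064 of 17600. Without treated replicates 2 and 1 they were 1001 of 17631 and 1609 of 17538. CDC25B, KIF20A and TOP2A were called lower under CHIR-99021 in both lines. CDC25B was called in 6 of 6 fits with a library left out in each line, KIF20A in 4 of 6 in Nalm6 and 2 of 6 in CEM, and TOP2A in 3 of 6 in each. CDC25B was called higher under prednisolone in both lines and under dexamethasone in Nalm6, in 6 of 6 such fits in Nalm6 for either drug but in 3 of 6 in CEM, where its log2 fold change ran from 0.090 to 0.17. In the knockout under prednisolone, at 33.1, 31.4 and 25.6 CPM untreated and 29.9, 28.1 and 30.3 CPM treated, it did not pass (-0.07 ± 0.09). The Nalm6 treatments with CHIR-99021 and prednisolone, and those in CEM, share their controls.

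Untreated CEM had higher levels than the untreated Nalm6 libraries of the dexamethasone set for 45 of the 47 genes and a lower level for 1, against 40.2% and 37.3% of 18018 genes (77.5% in either direction), with a median log2 difference of 0.70. Against the other untreated Nalm6 set, 46 were higher and 1 lower, where 8098 of 19041 genes were higher and 7677 lower. CDC25B had 171, 189 and 173 CPM in CEM and 29.1, 30.9 and 35.7 CPM in Nalm6 (2.44 ± 0.07, edgeR adjusted p = 1.78e-12). MKI67, at 544, 642 and 549 CPM against 171, 195 and 196 CPM, differed by 1.59 ± 0.07 (edgeR adjusted p = 1.59e-10). ECT2 differed by 1.58 ± 0.05 (edgeR adjusted p = 1.40e-11). BUB3, a checkpoint protein gene, was the one that was lower, at 275, 263 and 276 CPM against 332, 319 and 311 CPM (-0.28 ± 0.04, edgeR adjusted p = 4.11e-05), and PTTG1 did not pass (-0.03 ± 0.05).

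FOXM1 (1.17 ± 0.06, 1.17e-09), AURKA (0.99 ± 0.04, 1.14e-10), TOP2A (0.79 ± 0.04, 5.07e-10), CCNB1 (0.70 ± 0.05, 1.50e-08), PLK1 (0.64 ± 0.07, 2.37e-06) and CDC20 (0.42 ± 0.05, 3.26e-06) were all higher in CEM by edgeR, with groups apart. Over all members, groups did not overlap for 46 of 47, against 79.3% of 18018 genes. All 46 calls were made in all 6 fits with a library left out. Of the other mitotic genes 45 of 54 were higher and 4 lower (median 0.51), while the replication genes were divided, with 12 of 33 higher and 12 lower (median -0.03).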

How the data were processed

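RNA sequencing was carried out on 33 libraries, 3 in each of 11 groups taken from the sample titles. What the authors deposited are unnormalized counts for each gene, laid out as STAR writes them, with 62446 gene rows and 4 rows of totals that were left out of library sizes and tests (unmapped 2.84% to 11.2%, outside genes 18.4% to 32.7%, multiply mapped 4.83% to 7.55%, ambiguous 4.70% to 7.45%). Per the submitters' processing notes, the build was hg19 and Bowtie2 and DESeq2 were used; versions are not given in the sources used here. Column 4, counted on the reverse strand, was used throughout, and its gene totals were 25292579 to 61930057 counts. Symbols from a name table matched 58652 IDs and all 47 members. No pair of replicates agreed within sampling noise (chi-square per degree of freedom 1.85 to 43.7), so all were kept apart.

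For every comparison, only the groups concerned entered a fit over the whole table in edgeR 4.0.16 (R 4.3.3, limma 3.58.1): filterByExpr, TMM, quasi-likelihood F test, Benjamini-Hochberg adjustment over all genes tested, called at an adjusted p under 0.05. Differences between responses were tested as interaction terms. Standard errors come from the F statistic, and log2 fold changes from the fit. Levels are column 4 counts scaled to a gene total of 1000000 (CPM), and levels per kilobase use exon lengths of GENCODE v29 on GRCh38. The fitting script was tested on simulated data. Alternatives were scaling by RLE, a DESeq2 1.42.0 fit, dropping the filter, a minimum of 10 counts per library, the unstranded column 2, the replicate number as a block, the other untreated Nalm6 set for CEM, and each library left out.

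The members and the lists of other mitotic, anaphase-promoting complex, DREAM and MMB, and replication genes were chosen with earlier results of these data known. Full statistics are given for the 3 largest rises and 3 largest falls in each comparison among called members whose groups do not overlap, and for CCNB1, CDC20, PLK1, AURKA, TOP2A, MKI67 and FOXM1 in every comparison; from each other list up to 3 of the called genes with the largest change were named. Other members named within role groups were chosen after their values were seen.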

Additional observations from a re-analysis of the deposited data

Results flagged for a closer look

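The response to prednisolone differed between TLE1 knockout and parental Nalm6 cells, by an edgeR interaction test at the same dose, for 6 of the 47 genes. The differences in log2 fold change, knockout minus parental, were CDC25C (-0.45), FOXM1 (-0.40), BUB1 (-0.29), SPC24 (-0.35), ESPL1 (-0.45) and MKI67 (-0.85), all lower in the knockout. Only ESPL1 was called in all 12 fits with a library left out.

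Between CEM at 10 µM and Nalm6 at 5 µM, the response to prednisolone differed for 26 of the 47 genes by the same kind of test, with line and dose not separable. The differences in log2 fold change, CEM minus Nalm6, were above 0 for 23 genes: SPC24 (0.53), KIF11 (0.43), BIRC5 (0.42), KIF15 (0.40), AURKB (0.36), PTTG1 (0.36), MAD2L1 (0.34), KIF18A (0.31), ANLN (0.31), BUB3 (0.30), CCNA2 (0.29), SPC25 (0.29), DLGAP5 (0.28), BUB1B (0.27), ESPL1 (0.26), INCENP (0.24), KIF20A (0.22), PLK4 (0.20), FOXM1 (0.19), CENPF (0.19), KIF23 (0.16), KIF2C (0.15) and NDC80 (0.14). They were below 0 for CENPE (-0.16), HMMR (-0.16) and ECT2 (-0.13). Of these 26 calls, 19 were made in all 12 fits with a library left out, and CENPE, HMMR and ECT2 were not among those 19.

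Groups of 3 libraries are too small to test for single outlying values.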

How the results depend on the processing

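Of 93 called results for named members, 64 stayed called under every alternative, and of 1192 alternative values 1048 kept their call, 144 lost it and 0 changed sign. With single libraries left out, the count of called members ran from 2 to 23 for CHIR-99021 in Nalm6, 1 to 5 for CHIR-99021 in CEM, 16 to 21 for prednisolone in CEM, 2 to 27 for the untreated knockout and 1 to 9 for the difference between knockout and parental responses; in the other 7 comparisons it stayed within 1.5 times. Over all genes, the number called in such fits ran from 409 to 2708 for CHIR-99021 in Nalm6 and from 1001 to 1948 in CEM. It ran from 6798 to 7884 for prednisolone in CEM, 2804 to 6732 for the untreated knockout and 361 to 1852 for the difference between responses. The unstranded column gave 3 for CHIR-99021 in CEM and 3 for the difference between knockout and parental responses. Over all genes it called 1736 of 20068 and 487 of 21913. The cause was not tested. The median over the members changed sign in 1 of 12 comparisons, dexamethasone in knockout against parental (0.00058 without knockout replicate 1, in a range from -0.038).

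Same-numbered replicates did not deviate together, with correlations of their deviations between -0.083 and 0.082. No pairing by number was seen, but groups of 3 cannot show that there was none. With the replicate number as a block, the count was 3 for CHIR-99021 in CEM, 1 for the difference between knockout and parental responses and 10 for CHIR-99021 in Nalm6. Over all genes, the numbers called in these were 1462 of 17200, 346 of 17952 and 925 of 18082. The other counts stayed within 1.5 times, and PLK1 in the CEM minus Nalm6 response was at 0.0035.

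Sign changes were limited to 12 results that did not pass the test. For PLK1 in the CEM minus Nalm6 response the log2 value was 0.0032 with RLE, 0.0043 with DESeq2, 0.0073 without the filter, 0.016 with at least 10 counts and 0.0083 unstranded, and -0.050 to 0.054 with single libraries left out. AURKA there was 0.0013 with RLE, 0.0015 with DESeq2, 0.0058 without the filter and 0.015 with at least 10 counts, and -0.036 to 0.029 with libraries left out, and MKI67 was -0.15 to 0.055. Without the filter CCNB1 was -0.00064 under CHIR-99021 in Nalm6 and MKI67 -0.00014 under prednisolone in Nalm6, and AURKA in the untreated knockout was 0.0059 unstranded. With libraries left out, the ranges under CHIR-99021 in Nalm6 were -0.019 to 0.047 for CCNB1 and -0.0032 to 0.056 for AURKA, and in CEM -0.056 to 0.020 for FOXM1. MKI67 ran from -0.10 to 0.10 under prednisolone in Nalm6, -0.029 to 0.088 under dexamethasone and -0.090 to 0.036 under prednisolone in CEM, where CCNB1 ran from -0.031 to 8.7e-05. AURKA ran from -0.046 to 0.015 in the untreated knockout and from -0.080 to 0.0086 in the knockout under dexamethasone.

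Groups of 3 libraries set the precision: the SE of a member's log2 fold change was mostly a few hundredths, and differences near that size were not detectable.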
